A study of Mus musculus with 16 samples.

Results

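The genes of MHC class I antigen presentation followed here are 10 of the 24411 genes of the count table and were picked by their symbols. They are the heavy chains H2-K1 and H2-D1, the light chain B2m, the peptide transporter genes Tap1 and Tap2, the loading factor gene Tapbp, the immunoproteasome subunit genes Psmb8, Psmb9 and Psmb10, and Nlrc5, which encodes a transcriptional activator of class I genes. RNA was sequenced from brain macrophages of 8 bone marrow chimeras, and both the engrafted cells (CD45.1) and the host microglia (CD45.2) were sorted from the brain of each animal. Mice 1 to 4 received LPS, a bacterial endotoxin, at 2.5 mg/kg 12 h before they were killed, and mice 5 to 8 received none. The 16 libraries thus fall into 4 groups of 4. The comparisons ask whether graft-derived macrophages, after a long stay in the brain, carry the same transcripts as the host cells and answer a challenge alike.

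All mice were wild-type C57BL/6J by their labels and had been irradiated with 950 cGy before the graft, so the host microglia had been irradiated and the grafted cells had not. Recipients were 6 weeks old at irradiation, the marrow came from congenic wild-type donors with the CD45.1 allele, and by the study's text the challenge followed after 9 months, whereas the labels allow 3.5 or 9 months and assign neither to a mouse. Cells had been gated as negative for Ly6C and Ly6G.

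Class I molecules are formed by a heavy chain and beta-2-microglobulin, and show peptides from inside the cell to CD8 T cells and natural killer cells. The peptides are cut by the proteasome, carried into the endoplasmic reticulum by the TAP1-TAP2 transporter, and loaded onto class I with the help of tapasin. Interferons switch in the immunoproteasome subunits PSMB8, PSMB9 and PSMB10 in place of the constitutive subunits PSMB5, PSMB6 and PSMB7, and microglia hold little class I at rest and raise it in inflammation.

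Of the 10 genes, 7 lie on chromosome 17 in the mouse genome build mm9. H2-K1 spans chr17:34132957-34137278 on the minus strand, H2-D1 chr17:35400039-35404442 and Tapbp chr17:34056423-34066235 on the plus strand. Between them stand 4 genes side by side, Psmb9 at chr17:34319044-34324275 on the minus strand and Tap1, Psmb8 and Tap2 on the plus strand at chr17:34324501-34334170, chr17:34335140-34338399 and chr17:34341424-34353266. The starts of Psmb9 and Tap1 face each other over 225 bases. B2m lies at chr2:121973423-121978818 and Nlrc5 at chr8:96996663-97051172, both on the plus strand, and Psmb10 at chr8:108459628-108462292 on the minus strand.

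The sequence before the starts of the 2 heavy chains and of their light chain, 250 bases on the strand of the gene, and the stretch shared by Psmb9 and Tap1 are shown. Each heavy chain pairs separately with the light chain, and Psmb9 and Tap1 start from 1 stretch of DNA, so that their levels are set side by side below. Capitals mark the letters GGG, any 5 bases and CC (a loose form of the NF-kB site), CCAAT (the NF-Y box) and TGACG (the core of the CRE), searched on both strands. No letter of these windows belonged to 2 different motifs, but several matches of the NF-kB letters overlapped each other.
H2-K1, chr17:34137279-34137528, minus strand: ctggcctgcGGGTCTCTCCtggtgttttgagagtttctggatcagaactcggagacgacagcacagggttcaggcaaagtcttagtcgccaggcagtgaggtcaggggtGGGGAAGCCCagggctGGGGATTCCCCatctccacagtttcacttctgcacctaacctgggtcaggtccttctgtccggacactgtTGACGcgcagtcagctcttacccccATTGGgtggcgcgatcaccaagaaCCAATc
H2-D1, chr17:35399789-35400038, plus strand: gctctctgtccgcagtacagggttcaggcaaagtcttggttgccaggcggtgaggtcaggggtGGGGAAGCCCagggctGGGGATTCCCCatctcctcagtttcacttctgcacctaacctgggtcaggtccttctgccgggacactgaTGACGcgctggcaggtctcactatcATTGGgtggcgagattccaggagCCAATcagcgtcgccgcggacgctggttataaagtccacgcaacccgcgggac
B2m, chr2:121973173-121973422, plus strand: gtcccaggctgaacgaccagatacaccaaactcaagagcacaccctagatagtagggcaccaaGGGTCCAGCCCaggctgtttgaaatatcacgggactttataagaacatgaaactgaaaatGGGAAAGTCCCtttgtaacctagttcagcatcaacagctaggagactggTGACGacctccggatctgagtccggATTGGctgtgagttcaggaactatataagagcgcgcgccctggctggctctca
Psmb9 to Tap1, chr17:34324276-34324500, plus strand: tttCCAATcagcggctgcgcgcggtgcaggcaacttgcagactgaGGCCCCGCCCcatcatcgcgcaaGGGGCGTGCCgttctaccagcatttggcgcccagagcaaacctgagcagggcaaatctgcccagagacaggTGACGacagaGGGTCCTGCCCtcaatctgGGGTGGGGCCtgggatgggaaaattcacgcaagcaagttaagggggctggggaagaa
The TGACG core was found within 250 bases before 5 of the 10 genes (H2-K1, H2-D1, B2m, Tap1 and Psmb9) and before 20.1% of 24338 genes of the table. CCAAT was found before 6 of the 10 and 35.1% of all genes, and the NF-kB letters before 6 of the 10 and 50.4% of all genes. The windows of Tap1 and Psmb9 overlap, and for these 3 motifs the matches before both genes are the same sites, counted for each gene. The letters GAAA, any 2 bases and GAAA, as in an interferon response element, stood before B2m and Tap2 and before 3.14% of all genes, and TTC, any 3 bases and GAA before Psmb8 and before 6.84% of all genes. The Tap2 match (TTTCCTTTTC, on the minus strand) lies in a stretch rich in T. Looser forms of the interferon element were not searched, so their absence before the other genes is not shown. Such a match describes the letters of the window and is not a bound site. The GENCODE annotation of the same build places the outermost Psmb9 start at 34324709, inside Tap1, so the 225 bases are bounded by the starts that the count table used. It also places the outermost starts of H2-D1 (35399675), Psmb8 (34334666), Tap2 (34340472) and Tapbp (34052844) before their windows. The windows of these genes thus lie inside the annotated genes.

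Libraries held 395283 to 1203597 reads on genes (median 820587.5), and the engrafted library of mouse 4 was the shallowest. Levels are given as CPM, reads per 1000000 reads on genes after TMM scaling, a correction for differences in RNA composition, with 1 library per mouse and population. At 3 reads, the most that a count of 0 allows, the limit was 2.39 to 8.41 CPM (counting error only), and every one of the 10 genes lay above it in all 16 libraries. As a check of the labelled cell type, 9 of 9 microglia and macrophage genes were detected in every group, among them Ptprc (CD45), Csf1r, Itgam (CD11b) and Cx3cr1. Transcripts of 6 monocyte markers summed to 1068 to 2221 CPM in the engrafted cells after LPS, against 97.2 to 152 CPM in unchallenged engrafted cells and 4.79 to 22.3 CPM in host microglia, and all 6 were detected in the engrafted cells in spite of the Ly6C gate. Neutrophil markers summed to 113 to 478 CPM in unchallenged and 2.44 to 180 CPM in challenged engrafted cells, and to at most 2.78 CPM in the host cells. Red blood cell markers reached 4298 and 554 CPM in the engrafted and host libraries of mouse 4, 2878 and 512 CPM in those of mouse 8, and at most 117 CPM elsewhere, and the values without both mice are given where they change a result. T and NK cell markers summed to at most 36.4 CPM. In bulk RNA, fewer cells of a type and less RNA per cell cannot be told apart.

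**Figure D1:**
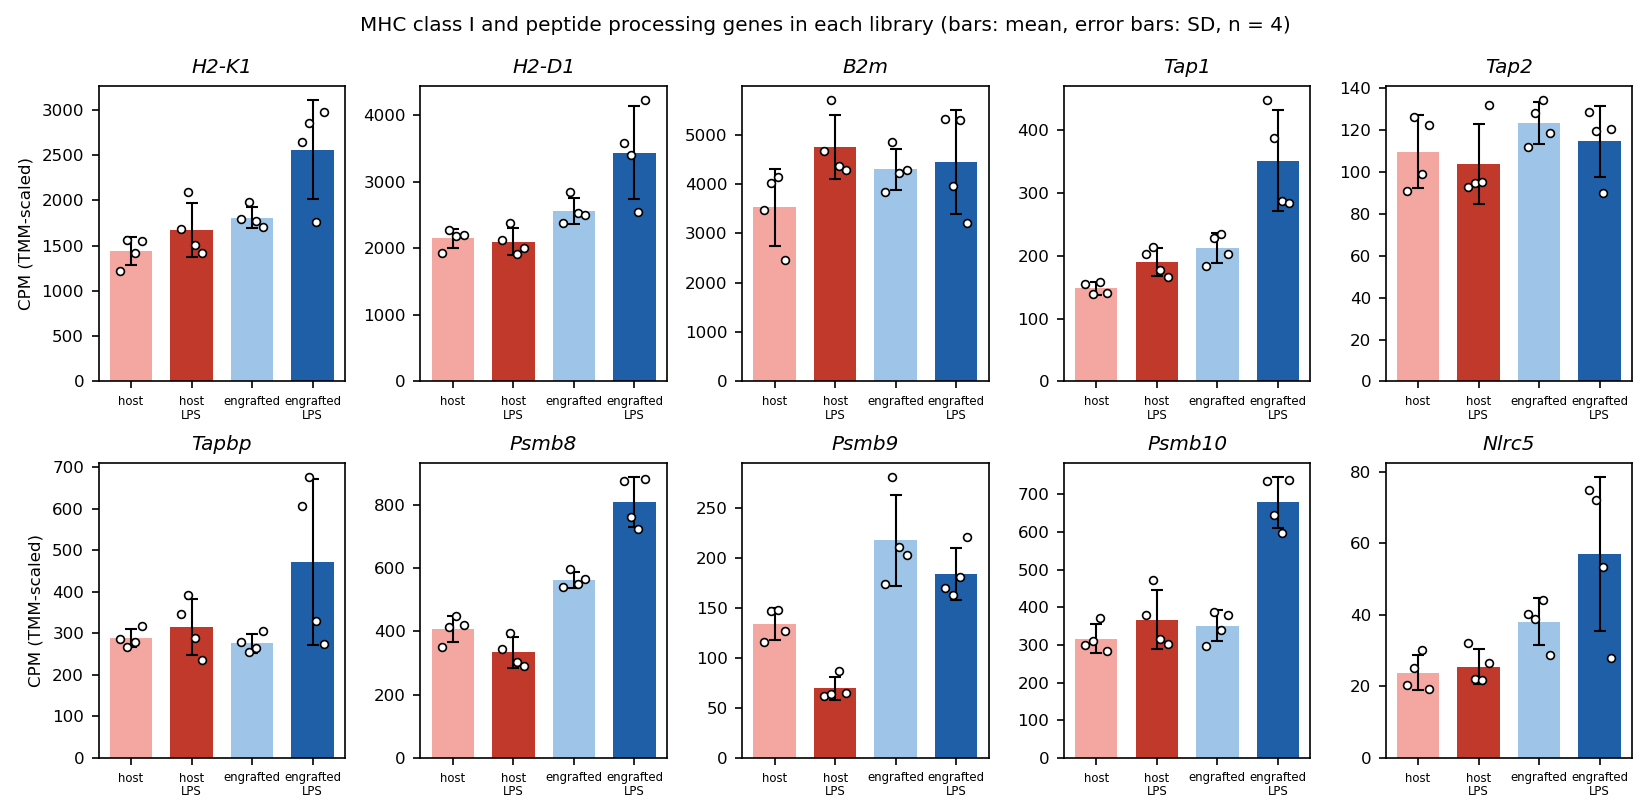
Level in CPM (y axis, linear, from 0) of each of the 10 genes in host microglia and engrafted cells without and with LPS; bars show the mean, error bars the SD and points the 4 libraries of a group. Psmb8 and Psmb10 are highest in the 4 engrafted LPS libraries, whereas Psmb9 is lowest in the 4 host LPS libraries and does not stand higher in challenged than in unchallenged engrafted cells.

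In unchallenged mice, the engrafted cells held modestly more transcript of 7 of the 10 genes, less of none, and 2-fold more of none. The immunoproteasome genes Psmb9 and Psmb8, the regulator Nlrc5 and the transporter gene Tap1 stood 1.43- to 1.67-fold higher, and the heavy chains and B2m 1.24- to 1.31-fold higher. Tap2, Tapbp and Psmb10 did not pass the test. Of the 8042 genes tested, 13.6% were higher in engrafted cells at an adjusted p below 0.05 (edgeR's quasi-likelihood test, Benjamini-Hochberg adjustment over all tested genes), and this threshold is meant below wherever a gene is said to pass, to rise, to fall or to be higher. At 2-fold or more, 6.25% of the tested genes passed as higher, and 0 of the 10, also 0 at an unadjusted p below 0.05 and 0 with DESeq2. None of the 10 passed as lower, again 0 at an unadjusted p and 0 with DESeq2, where 13.7% of all tested genes did and 4.73% at 2-fold or more. The median log2 fold change was 0.36 over the 10 genes and 0.02 over all tested genes.

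H2-K1 and H2-D1 encode the polymorphic heavy chains that hold the peptide. H2-K1 was at 1791, 1979, 1766 and 1704 CPM in the engrafted cells of mice 5 to 8 and at 1221, 1559.8, 1424 and 1554 CPM in the host cells of the same mice. All 4 engrafted libraries lay above all 4 host libraries, with means of 1810.1 ± 118 and 1439.7 ± 159 CPM (SD, n = 4), and the log2 fold change was 0.39 (SE 0.11, edgeR adjusted p = 0.00743). H2-D1 likewise did not overlap, at 2372 to 2839 CPM in engrafted against 1931 to 2269 CPM in host cells, with a log2 fold change of 0.31 (SE 0.10, edgeR adjusted p = 0.0228). B2m, the light chain without which the heavy chains do not reach the surface, was at 3835, 4843, 4229 and 4278 CPM in engrafted cells and at 3483, 4027, 4148 and 2452 CPM in host cells, so that the groups overlapped. The B2m difference of 0.34 (SE 0.13) rested on the edge of the threshold (edgeR adjusted p = 0.04998), and with the host library of mouse 8 left out, the lowest of the 16 for this gene, it was 0.20 (adjusted p = 0.192).

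Tap1, which with Tap2 encodes the transporter that carries peptides into the endoplasmic reticulum, was at 183, 228, 234 and 203 CPM in engrafted cells and at 155, 139, 159 and 139.9 CPM in host cells. Again no engrafted library fell within the host range, and the log2 fold change was 0.57 (SE 0.14, edgeR adjusted p = 0.0025). Its partner Tap2 differed by 0.21 (95% interval -0.08 to 0.50, adjusted p = 0.291), and the loading factor gene Tapbp by -0.00 (-0.27 to 0.26, adjusted p = 0.988). Tapbp was slightly lower in the engrafted than in the host cells of each of the 4 mice, with ratios of 0.948 to 0.976.

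Psmb9 and Psmb8 encode the subunits that replace PSMB6 and PSMB5 in the immunoproteasome. Psmb9 was at 174, 282, 211 and 203 CPM in the engrafted cells of mice 5 to 8, against 116, 147, 148 and 127 CPM in host cells. The groups were apart, and the log2 fold change of 0.74 (SE 0.15, edgeR adjusted p = 0.000573) was the greatest of the 10. Psmb8 was at 541 to 597 CPM in engrafted and at 349.9 to 448 CPM in host cells, a log2 fold change of 0.52 (SE 0.12, edgeR adjusted p = 0.00141). The third subunit gene, Psmb10, differed by 0.20 (95% interval -0.07 to 0.48, adjusted p = 0.293). In all, 5 of the 10 genes had every engrafted library above every host library (H2-K1, H2-D1, Tap1, Psmb8 and Psmb9), where 11.3% of all tested genes did. None had them all below, where 15.3% of all tested genes did.

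Nlrc5, the activator that acts on the promoters of class I genes, was the gene with the fewest reads of the 10, at 16 to 40 reads in an engrafted and 14 to 38 reads in a host library of unchallenged mice. It was at 40.3, 38.8, 44.2 and 28.8 CPM in engrafted and at 20.5, 25.3, 30.3 and 19.4 CPM in host cells. The groups overlapped, but within each of the 4 mice the engrafted library was higher, by 1.46 to 1.97 times. The log2 fold change was 0.71 (SE 0.24, edgeR adjusted p = 0.0278), and it no longer passed without any 1 of 6 libraries (adjusted p = 0.0508 to 0.0811), namely engrafted mouse 5, 6 or 7 or host mouse 5, 6 or 8. Nor did it pass under library totals, without the filter on low counts or with DESeq2 (adjusted p = 0.0569 to 0.0604). H2-D1 likewise did not pass without host mouse 5 or engrafted mouse 6 or 8 (0.0679 to 0.0966). Neither did B2m without host mouse 5 or 8 or engrafted mouse 6, 7 or 8 (0.0783 to 0.192). Under library totals, H2-D1 (edgeR adjusted p = 0.0969) and B2m (0.161) did not pass. The call was also lost for H2-D1 without the filter (edgeR adjusted p = 0.102) and for B2m with DESeq2 (adjusted p = 0.0695). Without both libraries of mouse 8, H2-D1 was at 0.33 (adjusted p = 0.059) and B2m at 0.20 (adjusted p = 0.301), and neither passed. When all 16 libraries were fitted together, only Tap1, Psmb8 and Psmb9 passed.

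After LPS the gap between engrafted cells and host microglia was wide for the immunoproteasome, with all 3 of its subunit genes higher in engrafted cells. Of the 10 genes, 3 passed at 2-fold or more (Psmb9, Psmb8 and Nlrc5), where 6.73% of 7843 tested genes did, and 7 passed at any fold, where 9.52% of all tested genes did. None passed as lower (7.62% of all tested genes, 4.34% at 2-fold or more), with 0 at an unadjusted p below 0.05 and 0 with DESeq2. The median log2 fold change was 0.82 over the 10 genes and -0.01 over all tested genes. Scaling by library totals in place of TMM moved the latter to -0.16.

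Psmb9 was at 170, 163, 181 and 221 CPM in the engrafted cells of mice 1 to 4, and at 61.9, 63.8, 86.9 and 65.4 CPM in their host cells. Every mouse showed it at 2.08 to 3.39 times the host level in its engrafted cells, and the log2 fold change was 1.42 (SE 0.19, edgeR adjusted p = 2.61e-05). Psmb8 was at 875, 762, 723 and 880.3 CPM in engrafted and at 345, 396, 302 and 291 CPM in host cells. Its engrafted libraries all stood above its host libraries, and the log2 fold change was 1.31 (SE 0.19, edgeR adjusted p = 5.66e-05). Psmb10, which had not passed in unchallenged mice, was at 735, 645, 598 and 737 CPM in engrafted against 378, 474, 316 and 302 CPM in host cells. It too was apart, with a log2 fold change of 0.91 (SE 0.20, edgeR adjusted p = 0.00302).

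Nlrc5 was at 74.9, 72.0, 53.3 and 28.0 CPM in engrafted and at 32.1, 21.9, 21.7 and 26.4 CPM in host cells after LPS. The engrafted library of mouse 4, which had 10 reads of the gene, fell within the host range, and the log2 fold change was 1.24 (SE 0.27, edgeR adjusted p = 0.0031). Tap1 was at 447, 387, 288 and 283 CPM in engrafted and at 203, 213, 177 and 166 CPM in host cells, a log2 fold change of 0.91 (SE 0.20, edgeR adjusted p = 0.00315) with no overlap. In the engrafted cells of mice 1 to 4, the summed monocyte markers were at 2221, 1608, 1587 and 1068 CPM, the same order of mice as for Tap1 and Nlrc5, whereas Psmb8 and Psmb9 were highest in mouse 4. The part of monocyte transcripts in the engrafted levels was not tested.

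H2-D1 was at 3579, 3392, 2539.7 and 4222 CPM in engrafted and at 2119, 2376, 1905 and 1998 CPM in host cells after LPS. All engrafted libraries were above all host libraries, by a log2 fold change of 0.74 (SE 0.19, edgeR adjusted p = 0.0124), which no longer passed without the host library of mouse 3 (adjusted p = 0.051). H2-K1, at 2641, 2855, 1764 and 2977 CPM against 1680.1, 2087, 1503 and 1420.3 CPM, overlapped because the engrafted library of mouse 3 was low. Its log2 fold change of 0.64 (SE 0.21, edgeR adjusted p = 0.0392) did not pass without any 1 of 6 libraries (adjusted p = 0.0592 to 0.124), namely engrafted mouse 1, 2 or 4 or host mouse 1, 3 or 4, nor without both libraries of mice 4 and 8 (0.47, adjusted p = 0.139). Scaling by library totals left it at 0.47 (adjusted p = 0.0882). B2m differed from its heavy chains, with a log2 fold change of -0.07 (95% interval -0.49 to 0.34, adjusted p = 0.86), and was higher in the engrafted cells of 2 of 4 mice.

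Tapbp was at 605, 677, 329 and 275 CPM in engrafted and at 345, 391.8, 289.8 and 235 CPM in host cells after LPS. It was higher in the engrafted cells of every mouse, by 1.14 to 1.75 times, but the spread between mice was wide and the fold change of 0.60 did not pass (adjusted p = 0.138). With the mouse as a block it was 0.54 and passed (adjusted p = 0.0457). Without the engrafted library of mouse 4 it also passed, at 0.79 (adjusted p = 0.0201). Tap2 differed by 0.16 (95% interval -0.24 to 0.57, adjusted p = 0.64).

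**Figure D2:**
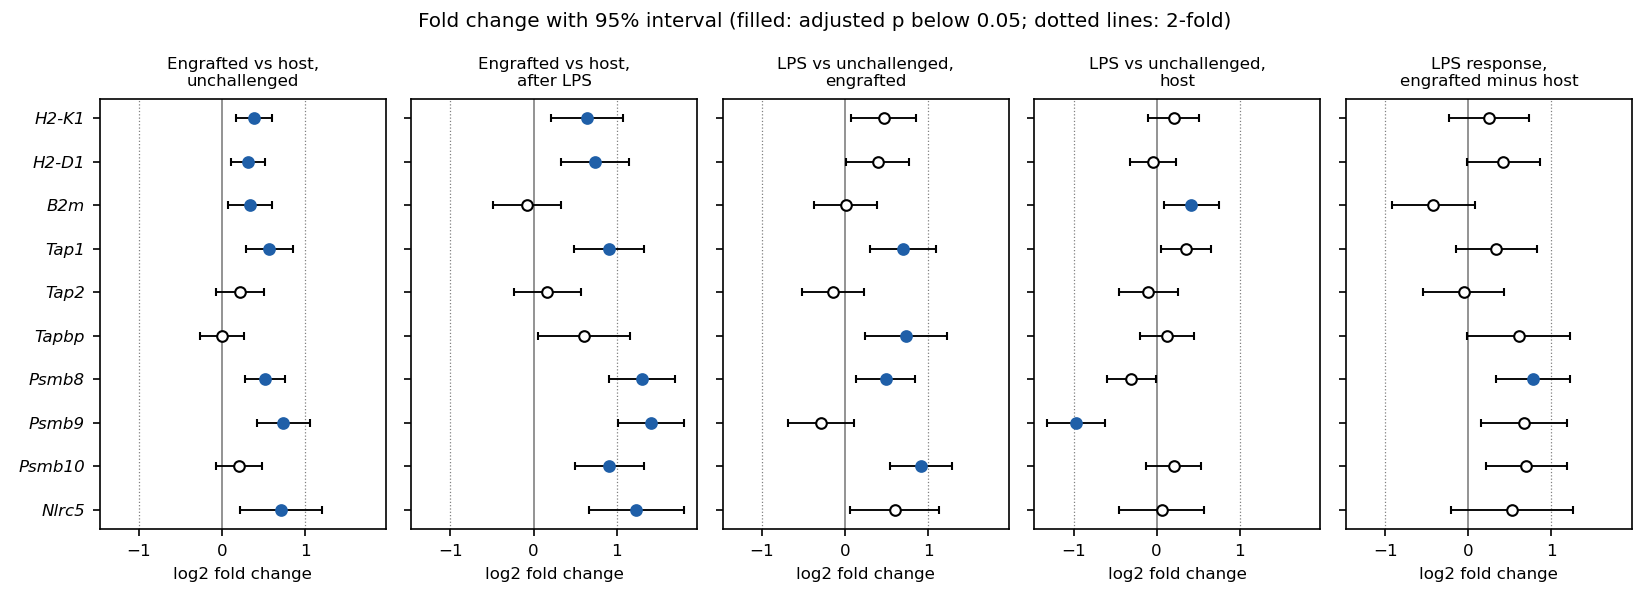
Log2 fold change (x axis) of each of the 10 genes in 4 comparisons and, on the right, the difference between the LPS responses of engrafted and host cells; bars are 95% intervals, filled points passed at an adjusted p below 0.05 and dotted lines mark 2-fold. After LPS, Psmb8, Psmb9 and Nlrc5 lie beyond 2-fold in engrafted against host cells, and in host microglia Psmb9 lies at -0.97.

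Within the engrafted cells, LPS raised 4 of the 10 genes and lowered none. Psmb10 rose the most, by 0.91 on the log2 scale (SE 0.18, edgeR adjusted p = 0.000378), from 298, 388, 341 and 379.7 CPM in mice 5 to 8 to the 598 to 737 CPM given above. Tap1 rose by 0.69 (SE 0.19, edgeR adjusted p = 0.00687) and Psmb8 by 0.49 (SE 0.17, edgeR adjusted p = 0.0273), and in both the challenged libraries lay above all unchallenged ones. Tapbp rose by 0.74 (SE 0.24, edgeR adjusted p = 0.0184), but only mice 1, 2 and 3 were above the 255 to 306 CPM of unchallenged engrafted cells. Among all 7609 tested genes, 19.4% rose and 19.3% fell, and 18.3% had all challenged libraries above all unchallenged ones, which was the case for 3 of the 10 (Tap1, Psmb8 and Psmb10). None of the 10 reached 2-fold with an adjusted or unadjusted p below 0.05, or with DESeq2, where 10.2% of all tested genes rose and 11.3% fell by 2-fold or more, and 16.7% had all challenged libraries below. None of the 10 fell, with 0 at an unadjusted p below 0.05 and 0 with DESeq2. The median log2 fold change was 0.48 over the 10 and -0.01 over all tested genes.

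The remaining genes did not pass in engrafted cells. H2-K1 differed by 0.46 (adjusted p = 0.0546), H2-D1 by 0.39 (adjusted p = 0.0981) and Nlrc5 by 0.60 (adjusted p = 0.0726). H2-K1 passed without the engrafted LPS library of mouse 3 (0.62, adjusted p = 0.00821) and of mouse 4 (0.38, adjusted p = 0.048), H2-D1 without that of mouse 3 (0.52, adjusted p = 0.0239), and Nlrc5 without that of mouse 4 (0.77, adjusted p = 0.00658) or without mice 4 and 8 (0.66, adjusted p = 0.0238). H2-K1 also passed with DESeq2, without the filter on low counts and in 1 fit of all libraries (adjusted p = 0.0284 to 0.0353), Nlrc5 without the filter (0.0393) and H2-D1 in 1 fit of all libraries (0.0455). B2m was at 0.01 (95% interval -0.37 to 0.39) and Tap2 at -0.14 (-0.51 to 0.23). Psmb9, alone among the immunoproteasome genes, had a negative value of -0.29 (-0.68 to 0.11, adjusted p = 0.242). The call for Psmb8 was lost under library totals (adjusted p = 0.0553) and without engrafted mouse 1, 5, 6, 7 or 8 (0.0566 to 0.0829), and that for Tapbp without engrafted mouse 1, 2, 6 or 7 (0.0564 to 0.0787).

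In host microglia, LPS lowered Psmb9 and raised B2m. Psmb9 fell by 0.97 on the log2 scale (SE 0.17, edgeR adjusted p = 8.17e-05), from 116, 147, 148 and 127 CPM in mice 5 to 8 to 61.9, 63.8, 86.9 and 65.4 CPM in mice 1 to 4. Every challenged library lay below every unchallenged one, as was the case for 18.6% of 8238 tested genes, of which 20.5% fell and 19.2% rose. B2m was at 4665, 5702, 4361 and 4289 CPM after LPS, above the 2452 to 4148 CPM of unchallenged host cells, and its rise of 0.42 (SE 0.16, edgeR adjusted p = 0.0439) no longer passed without host mouse 1, 2, 5, 6 or 8 (adjusted p = 0.0522 to 0.149) or without both libraries of mice 4 and 8 (0.32, adjusted p = 0.106).

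The other 8 genes did not pass in host microglia. Tap1 had no overlap, at 166 to 213 CPM after LPS and 139 to 159 CPM without, but a difference of 0.35 (adjusted p = 0.0606), and B2m and Tap1 were the 2 genes with every challenged library above every unchallenged one, where 17.1% of all tested genes had this. Psmb8 differed by -0.30 (95% interval -0.60 to -0.00, adjusted p = 0.101), H2-K1 by 0.20 (adjusted p = 0.293), H2-D1 by -0.04 (adjusted p = 0.823), Psmb10 by 0.20 (adjusted p = 0.322) and Nlrc5 by 0.06 (adjusted p = 0.872). Tapbp was at 0.12 and Tap2 at -0.10 (adjusted p = 0.567 and 0.675). Past 2-fold there was no gene in either direction (7.66 and 10.4% of all tested genes), with 0 at an unadjusted p below 0.05 and 0 with DESeq2, and the median over the 10 was 0.09, against 0.01 over all tested genes.

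The difference between the responses was tested directly as the interaction of population and challenge over all 16 libraries. Psmb8 passed, with an LPS response 0.78 higher on the log2 scale in engrafted cells (SE 0.21, edgeR adjusted p = 0.0289), where 2.97% of 8847 tested genes passed in that direction. Its unchallenged means were 563 ± 24.7 CPM in engrafted and 408 ± 41.5 CPM in host cells, and its means after LPS 810.2 ± 79.3 and 333 ± 47.8 CPM (SD, n = 4). Psmb10 differed by 0.70 (95% interval 0.21 to 1.19, adjusted p = 0.0822) and Psmb9 by 0.67 (0.15 to 1.19, adjusted p = 0.125), which did not pass. B2m was at -0.42 (-0.92 to 0.08, adjusted p = 0.36), and the others lay between -0.05 and 0.61 (adjusted p = 0.268 to 0.939). Psmb8 no longer passed without engrafted mouse 1 or host mouse 3, 4, 6, 7 or 8 (adjusted p = 0.0515 to 0.0689), or without both libraries of mice 4 and 8 (0.70, adjusted p = 0.0708). None of the 10 passed at 2-fold (2.45% higher and 2.50% lower among all tested genes) or as lower (2.90%), with 0 in each case at an unadjusted p below 0.05 and 0 with DESeq2.

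The 4 groups took different orders for different genes. H2-K1, H2-D1, Tap1, Tapbp, Psmb8, Psmb10 and Nlrc5 had their highest mean in engrafted cells after LPS, and for Tap1, Psmb8 and Psmb10 this group lay apart from the next. Psmb9 was highest in unchallenged engrafted cells at 218 ± 45.5 CPM, followed by engrafted cells after LPS at 184 ± 26.02 CPM, whose libraries overlapped with these. Next came unchallenged host cells at 134 ± 15.9 CPM and host cells after LPS at 69.5 ± 11.7 CPM, each apart from the group before it (SD, n = 4). B2m was highest in host cells after LPS, and Tap2 in unchallenged engrafted cells, and in both genes all neighbouring groups overlapped. Beyond the shares given above, none over all tested genes was computed for these orders or for engrafted against host libraries after LPS. These separations describe single genes.

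Psmb9 shares its start region with Tap1, and Psmb8 lies on the far side of Tap1. The reads of Psmb9 were therefore set against theirs within each library, which needs no scaling between libraries. This view was chosen after the values had been seen and is a description. Psmb9 had 0.745 to 1.06 reads per Tap1 read in the 4 unchallenged host libraries and 0.902 to 1.24 in the engrafted ones. After LPS it had 0.299 to 0.49 in host and 0.38 to 0.782 in engrafted libraries, so that the challenged and unchallenged libraries of either population did not overlap. Per Psmb8 read, Psmb9 went from 0.329 ± 0.021 to 0.213 ± 0.0565 in host and from 0.385 ± 0.0635 to 0.228 ± 0.028 in engrafted cells (SD, n = 4), with no overlap in either. Against Psmb6, the gene of the constitutive subunit that PSMB9 replaces, it went from 0.755 ± 0.0969 to 0.253 ± 0.0799 in host and from 1.33 ± 0.272 to 0.567 ± 0.145 in engrafted cells, also with no overlap. In both populations Psmb9 held a lower share of reads beside each of these 3 genes after LPS. In engrafted cells all 3 rose with LPS (Tap1 by 0.69 and Psmb8 by 0.49 on the log2 scale). Psmb9 itself, at -0.29, did not pass there. In host cells Psmb9 itself fell, at -0.97. Of 7 ratios computed, the other 4 did not separate challenged from unchallenged libraries in both populations. H2-D1 reads per B2m read were 0.526 to 0.898 in unchallenged and 0.417 to 0.466 in challenged host libraries, and 0.583 to 0.619 and 0.479 to 1.32 in engrafted ones. H2-K1 reads per B2m read overlapped, at 0.343 to 0.634 and 0.331 to 0.366 in host and 0.398 to 0.467 and 0.332 to 0.928 in engrafted libraries. Overlap was also seen for Psmb10 per Psmb7 read, with means of 5.41 and 4.97 in host and 6.34 and 6.86 in engrafted cells. The same held for Psmb8 per Psmb5 read, with means of 19.6 and 9.84 in host and 29.2 and 19.6 in engrafted cells. The mean of 29.2 (SD 18.2) holds mouse 7 at 55.8, a library with only 6 Psmb5 reads. Mice 5, 6 and 8 were at 19.9, 25.3 and 15.7.

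**Figure D3:**
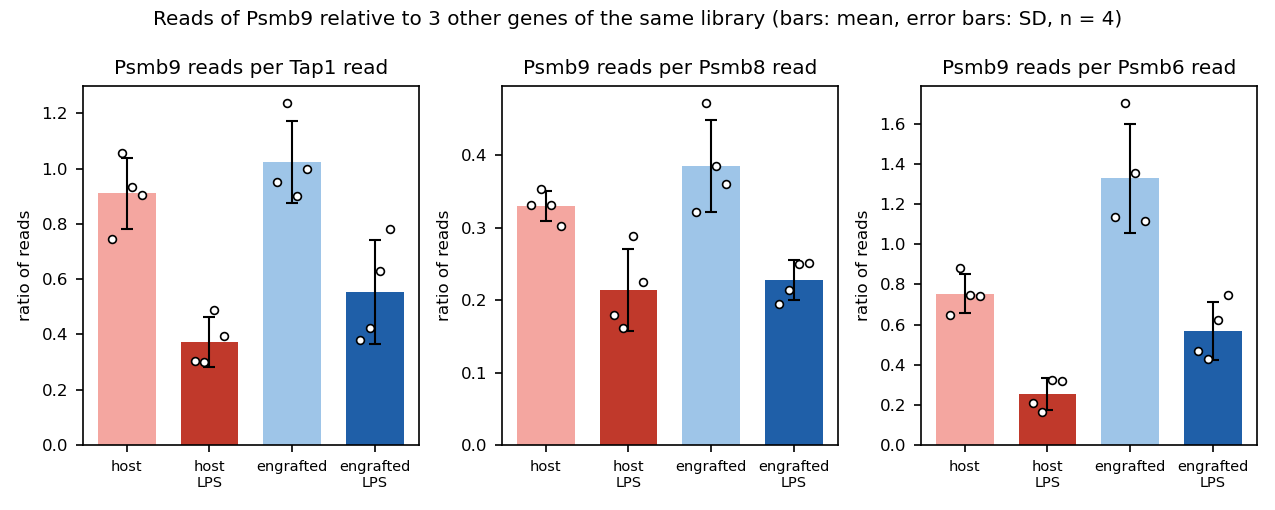
Reads of Psmb9 divided by the reads of Tap1, Psmb8 or Psmb6 of the same library (y axis, ratio, from 0) in the 4 groups; bars show the mean, error bars the SD and points the 4 libraries. In each panel both LPS groups have lower means than their unchallenged groups, for example 0.253 against 0.755 Psmb9 reads per Psmb6 read in host cells.

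Around the 10 genes, 61 further genes of the class I pathway were listed by function. In unchallenged mice 39 were tested, of which 7 passed as higher and 3 as lower in engrafted cells (13.6 and 13.7% of all tested genes), and the median log2 fold change was 0.04. After LPS 38 were tested, of which 4 were higher and 2 lower (9.52 and 7.62% of all tested genes), with a median of 0.12. LPS raised 6 and lowered 6 of 39 in engrafted cells (19.4 and 19.3% of all tested genes), and raised 7 and lowered 6 of 39 in host microglia (19.2 and 20.5%). Beside these shares the counts are no result about the lists as a whole, and single genes are described.

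Of 24 other heavy chain rows, 5 were tested in each comparison between 2 groups. The nonclassical H2-Q7 was higher in unchallenged engrafted cells, at 97.2 to 126 CPM against 45.4 to 72.6 CPM in host cells (log2 fold change 0.94, edgeR adjusted p = 9.93e-05), and past 2-fold after LPS (1.17, edgeR adjusted p = 0.0103), where the host library of mouse 2, at 138 CPM, overlapped with the engrafted ones. The row of H2-Q9 covers the same stretch and holds nearly the same reads (1252 against 1253 over 16 libraries), so the 2 genes cannot be told apart, and the same holds for H2-T22 and H2-T9 (868 reads each). H2-T22, another nonclassical molecule, was at 145, 149, 82.0 and 121 CPM in the engrafted cells of mice 1 to 4 and at 46.3 to 55.8 CPM in those of mice 5 to 8, and rose by 1.29 (edgeR adjusted p = 7.27e-05). In host cells it was at 58.5, 66.8, 42.3 and 25.04 CPM after LPS and at 42.7 to 57.2 CPM without, and its responses differed by 1.37 (interaction, edgeR adjusted p = 0.00959). H2-T22 and H2-T10 were past 2-fold higher in engrafted cells after LPS, at 1.37 and 1.15 (edgeR adjusted p = 0.000933 and 0.0172). H2-T10 was low, at 14.3 to 25.2 CPM in engrafted and 8.35 to 12.0 CPM in host cells.

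Among the class I-like molecules, 2 of 4 were tested between the populations. Fcgrt, the neonatal Fc receptor that pairs with B2m and binds antibodies, was at 70.5, 54.9, 72.9 and 78.5 CPM in engrafted and at 114, 148, 142 and 153 CPM in host cells after LPS. It was the 1 listed gene past 2-fold lower there (log2 fold change -1.002, edgeR adjusted p = 0.000922), and within engrafted cells it fell by 0.87 with LPS (edgeR adjusted p = 0.00144), while the heavy chains H2-K1 and H2-D1 had positive values.

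The 3 constitutive proteasome subunit genes had, between engrafted and host cells, log2 fold changes of -0.11 to 0.07 in unchallenged mice and 0.22 to 0.42 after LPS (adjusted p = 0.18 to 0.916 with edgeR). LPS raised Psmb6 in both populations, by 0.99 in engrafted cells (edgeR adjusted p = 0.000142) and by 0.70 in host cells (edgeR adjusted p = 0.0022), and raised Psmb7 in engrafted cells (0.77, edgeR adjusted p = 0.00427). In host cells, Psmb6 rose from 178 ± 14.4 to 291 ± 77.3 CPM while Psmb9 fell. Of 4 tested proteasome activators and assembly factors, 1 rose with LPS in engrafted and 2 in host cells (19.4 and 19.2% of all tested genes). Psme1, a subunit of the PA28 activator, rose with LPS in engrafted cells (0.67, edgeR adjusted p = 0.0039) and in host cells (0.84, edgeR adjusted p = 6.06e-05).

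Of the 6 loading and trimming genes of the endoplasmic reticulum, 2 were lower in unchallenged engrafted cells, where 13.7% of all tested genes were. Calr, the chaperone calreticulin, was at 549 to 695 CPM in engrafted and at 859 to 1242 CPM in host cells (log2 fold change -0.68, edgeR adjusted p = 0.000105). With LPS it fell by 0.60 in host cells (edgeR adjusted p = 0.00305), and its responses differed by 0.997 (interaction, edgeR adjusted p = 0.00624). Of 7 cytosolic peptidases, which trim or destroy peptides before they reach TAP, Tpp2 was past 2-fold higher in unchallenged engrafted cells, at 69.5 to 125 CPM against 32.2 to 59.2 CPM (1.12, edgeR adjusted p = 0.00018). Tpp2 fell with LPS in engrafted cells (by 0.67, edgeR adjusted p = 0.0173) and rose in host cells (0.55, edgeR adjusted p = 0.0366), and the responses differed by -1.23 (interaction, edgeR adjusted p = 0.0107). Those of Thop1 differed by -1.57 (interaction, edgeR adjusted p = 0.0268), on levels of 5.61 to 35.01 CPM.

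Of 12 transcriptional regulators, 3 were higher and 1 was lower in unchallenged engrafted cells (13.6 and 13.7% of all tested genes), and LPS raised 1 and lowered 4 in engrafted cells (19.4 and 19.3%). Irf1, an interferon-induced activator of class I genes, was higher by 0.43 on the log2 scale (edgeR adjusted p = 0.02), and its LPS response in engrafted cells was 0.30 (adjusted p = 0.202). Ciita, the class II counterpart of Nlrc5, had 17, 42, 11 and 23 reads in the unchallenged engrafted libraries of mice 5 to 8 and 1 read in all 4 of their host libraries (edgeR adjusted p = 1.35e-07). After LPS it had 4, 1, 2 and 1 reads in engrafted cells (edgeR adjusted p = 5.32e-05 for its fall) and 0 in host cells. The sum of 5 dendritic cell markers moved with it, at 18.1 to 32.8 CPM in unchallenged engrafted, 0 to 7.32 CPM in unchallenged host, 4.47 to 9.76 CPM in challenged engrafted and 0 to 5.56 CPM in challenged host cells. All 5 had reads in unchallenged engrafted cells, Clec9a had none in the other 3 groups and Xcr1 none in challenged engrafted cells. With LPS in engrafted cells, mean Clec9a went from 7.77 to 0 CPM, Cd209a from 9.68 to 1.80 CPM and Zbtb46 from 4.43 to 1.84 CPM. Mean Flt3 did not fall, at 2.86 CPM without and 3.26 CPM with LPS. The part of dendritic cell transcripts in the Ciita level was not tested. Of the factors that hold the enhanceosome of class I and class II promoters together, Rfxank fell past 2-fold with LPS in engrafted cells (by 1.001, edgeR adjusted p = 0.0117, with overlap) and in host cells (by 1.10, edgeR adjusted p = 0.000561), and Nfya fell in engrafted cells (by 1.46, edgeR adjusted p = 0.00295) and, by less than 2-fold, in host cells (it fell by 0.80, edgeR adjusted p = 0.0155). Rfxap, a partner of Rfxank in the RFX complex, rose in engrafted cells (0.74, edgeR adjusted p = 0.0339), where Rfx5 was at 0.66 (adjusted p = 0.215).

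**Figure D4:**
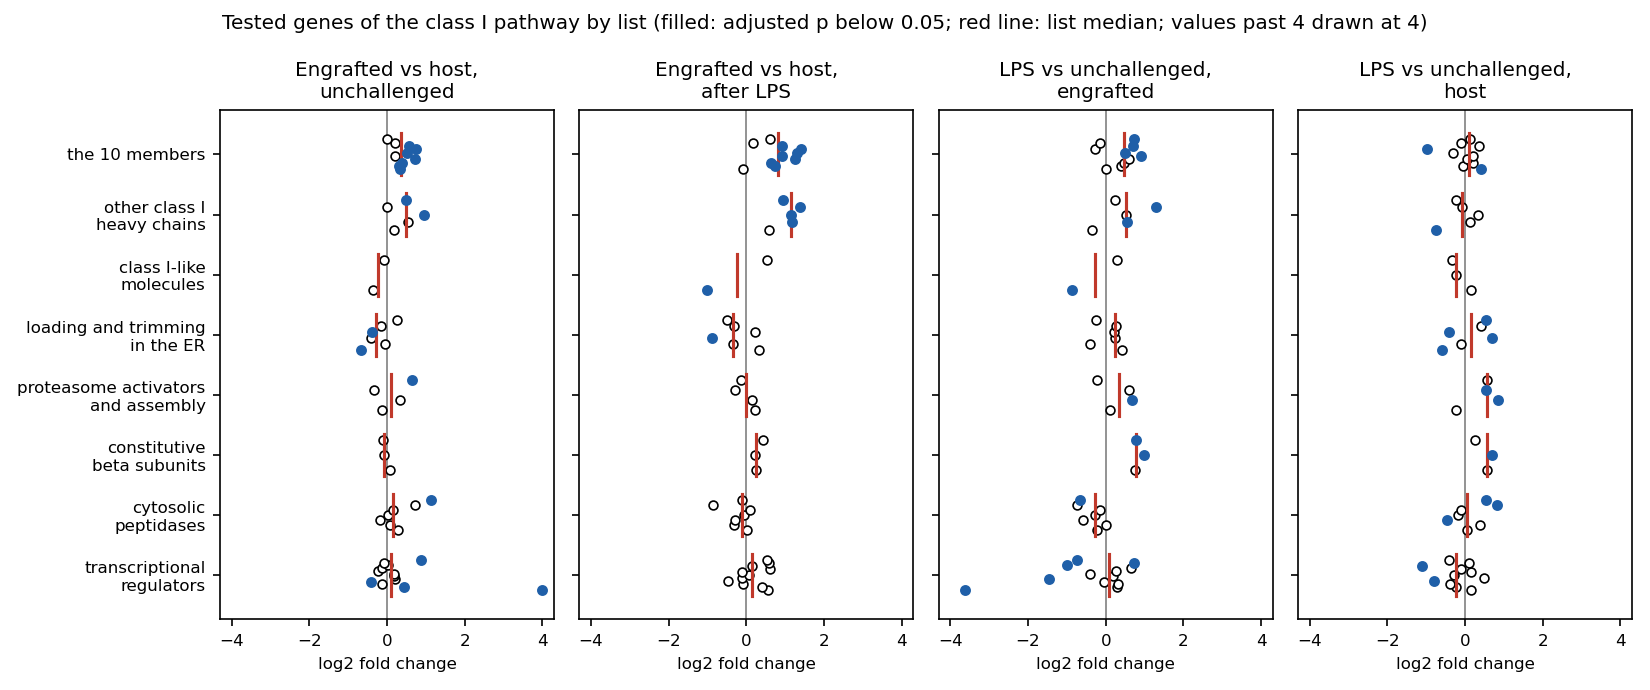
Log2 fold change (x axis) of the tested genes of each list (rows) in 4 comparisons; filled points passed at an adjusted p below 0.05, red lines are list medians, and 1 value past 4 (Ciita, unchallenged) is drawn at 4. The heavy chains other than H2-K1 and H2-D1 have a median of 1.15 in engrafted against host cells after LPS, beside 0.82 for the 10 genes, and the constitutive beta subunits of 0.25.

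The 10 genes did not form 1 pattern over the 16 libraries. On log2 CPM, Pearson's r with the mean of the other 9 genes was 0.923 for Tap1, 0.893 for Psmb8, 0.888 for H2-D1, 0.864 for H2-K1, 0.831 for Psmb10 and 0.803 for Nlrc5. It was 0.569 for Tapbp, 0.466 for Psmb9, 0.248 for Tap2 and 0.185 for B2m. The libraries of a group share their condition and those of a mouse their animal, so these values describe the 16 libraries and carry no test. H2-K1 and H2-D1 were each other's nearest gene among 3739 genes of at least 50 CPM (r = 0.939), and the transcript most like Psmb9 was Dynll1 (r = 0.946). Outside the lists, the genes most like the mean of the 10 were Sema4a (r = 0.943), Vim (0.937), Esd (0.934), Ninj1 (0.933), Shfm1 (0.923) and Ccl7 (0.92). All 6 had their highest group mean in engrafted cells after LPS. Reads of the heavy chains can be shared with related genes. Of the 50-base windows in the last 500 bases of the transcript, 0.443% for H2-K1 and 9.53% for H2-D1 also occur in another gene. For 7 others the share was 0%. Nlrc5 was not compared, since only protein-coding transcripts were searched and the annotation does not list it as protein-coding. Only uniquely mapped reads had been counted.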

How the data were processed

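RNA of 10000 sorted cells per sample was turned into 3′ libraries with a modified MARS-seq protocol. The authors mapped the reads to mm9 with HISAT (0.1.5 in the submitters' processing notes), kept uniquely mapped reads and counted them on exons, on the sense strand, with HOMER, 1 row per gene. The deposited values are these raw read counts, without normalization. No other per-sample columns were left aside.

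The 10 genes and the lists were chosen with earlier results of these data known. Groups come from the sample titles. The edgeR package (4.0.16, under R 4.3.3) was used, with filterByExpr as the filter on low counts (minimum count 10, minimum total 15), TMM scaling and the quasi-likelihood test (prior count 0.125) with Benjamini-Hochberg adjustment over all genes tested, on the 2 groups compared, or on all 16 libraries for the interaction. Each standard error was taken as the fold change over the root of its F value, and intervals are 95%. All 10 genes passed the filter in every comparison. Tests were checked on simulated counts. For likeness, log2 CPM had a prior count of 2. The genes named are the 10, listed genes past 2-fold at an adjusted p below 0.05 (at most 4 per list and comparison), the 6 most like the mean of the 10, and cell type markers. Of the genes this rule or the lists hold, 2 are not reported here. Other listed genes (Irf1, Rfxap, Rfx5, Calr, Psmb6, Psmb7, Psme1 and the genes most like a single member) were named after their values were seen.

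Both populations of a number come from 1 animal, as the series' design text says, so the numbers pair engrafted with host libraries. After removal of group means, the 2 libraries of a mouse correlated over genes by -0.0298 to 0.21. The study's methods name no term for the mouse, and a fit with the mouse as replicate block served as an alternative. The others were RLE size factors, library totals, no filter, DESeq2 1.42.0, all libraries in 1 fit, class I rows summed, and each library left out. Leaving out mice 4 and 8 was added after the data were seen. Promoter windows were read from the mm9 genome by the starts in the count table. A planned comparison of the proteins is not analysed here.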

Additional observations from a re-analysis of the deposited data

Results flagged for a closer look

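In host microglia after LPS, mouse 4 held Tap2 at 132 CPM, apart from the 92.9 to 95.4 CPM of the other 3 mice. In the same group, mouse 3 held Psmb9 at 86.9 CPM, apart from 61.9 to 65.4 CPM, and still below every unchallenged host library. By Dixon's criterion, 2 of 40 groups of 4 libraries were marked in this way, and chance marks about 1 in 20. The LPS response of Psmb8 differed between engrafted and host cells by 0.78 on the log2 scale, by the interaction test given above.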

How the results depend on the processing

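The 3 genes past 2-fold after LPS (Psmb8, Psmb9 and Nlrc5) numbered 3 under RLE size factors, library totals, no filter, DESeq2, 1 fit of all libraries, the mouse block and without mice 4 and 8, and 3 to 4 with each library left out. The number higher in unchallenged engrafted cells was 7 as reported, 5 with DESeq2 and 4 under library totals. It was 3 in 1 fit of all libraries, and without the filter H2-D1 and Nlrc5 no longer passed. With each library left out the number was 4 to 7, with 4 without host mouse 5 or engrafted mouse 6. For engrafted cells, the number that rose with LPS was 2 to 6 in turn, around the 4 reported, with 2 left without LPS mouse 1 or unchallenged mouse 6 or 7. In host microglia, the 1 gene that rose (B2m) was 0 in 1 fit of all libraries, 0 without mice 4 and 8, and 0 to 2 in turn. Those that fell were 1 to 2 in turn, and those past 2-fold 0 to 1, where Psmb9 crossed 2-fold without LPS mouse 3 or unchallenged mouse 5 or 8. Genes higher in the interaction were 2 with DESeq2 (Psmb8 and Psmb10), 0 without mice 4 and 8, and 0 to 2 in turn. The cause was not tested.

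Signs turned only near 0. B2m with LPS in engrafted cells was -0.058 under library totals, and B2m after LPS was 0.0011 without mice 4 and 8. The sum of class I heavy chain rows, which stands in for H2-D1 in that alternative, was 0.038 with LPS in host cells. It is another quantity than H2-D1 alone, which was -0.044. Without mice 4 and 8, Nlrc5 in host cells was -0.059 and Tap2 in the interaction 0.030. When 1 library was left out, signs turned for Tapbp unchallenged (-0.062 to 0.043), B2m after LPS (-0.16 to 0.053), B2m in engrafted cells (-0.076 to 0.14), Nlrc5 and H2-D1 in host cells (-0.063 to 0.20 and -0.086 to 0.011) and Tap2 in the interaction (-0.11 to 0.11). Over single genes and the other alternatives, 296 values kept direction and side of the threshold, 19 lost it, 10 gained it and 5 turned sign. With 1 library left out, 414 values kept both, 41 lost the threshold, 8 gained it and 17 turned sign.

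The replicate block by mouse left 7 genes higher in unchallenged mice and gave 8 after LPS, where Tapbp was added, and it changed no other call of the 10 genes. No paired analysis was possible for LPS within a population because challenged and unchallenged mice are different animals. Scaling by library totals moved the median of all tested genes to -0.16 after LPS, -0.09 in engrafted cells and -0.10 in the interaction. Depth limited Nlrc5 most, with 10 to 67 reads per library.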
